A study of Mus musculus with 8 samples.

Results

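Cofilin is the protein that severs and depolymerizes actin filaments, and the 8 genes described here encode the cofilin family and the enzymes that switch it off and on: the Slingshot phosphatases Ssh1, Ssh2 and Ssh3, the LIM kinases Limk1 and Limk2, and their substrates Cfl1 (non-muscle cofilin), Cfl2 (muscle cofilin) and Dstn (destrin, also called actin-depolymerizing factor). They are 8 of the 20802 genes in the deposited hippocampal table, and all 8 passed the filter of a mean of at least 10 normalized counts that left 18865 genes in the comparison. The set was chosen by its link to Ssh1, which is among the genes the study lists as differing between the groups, and the remaining 7 were added as members of the same pathway. The difference between the groups is therefore what chose the set, and it is given below as a description with no test for any of the 8.

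LIM kinases phosphorylate a serine near the amino terminus of cofilin and destrin, which stops them from binding actin, and Slingshot phosphatases remove that phosphate. The balance between both enzymes sets how fast actin filaments turn over. In hippocampal neurons this cycle is known for its part in the growth and shrinkage of dendritic spines during synaptic plasticity and in growth cone movement. RNA levels, as measured here, do not report phosphorylation.

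The samples were whole hippocampi of 8 male C57BL/6 mice, divided into an Anesthesia group and a Control group of 4 each. From PND16 (postnatal day 16) the Anesthesia group received ketamine intraperitoneally at 35 mg/kg once a day, 5 injections in all, and the Control group was handled in the same manner with saline, although the sample titles call it untreated. All mice are labelled as PND28, and the study's methods place the RNA extraction 1 week after the last injection. The labels and the study's methods name different TruSeq library kits, and only the kit in the methods keeps the strand. In whole tissue, fewer cells of a type and less RNA per cell cannot be told apart.

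The deposited values are gene-level counts that the authors normalized, called normalized counts below, and their totals were between 18702634 and 19231119 per mouse. Spacing of the lowest values puts the reads assigned to genes near 15400000 to 22200000 per mouse. Markers of hippocampal pyramidal and granule neurons summed to between 34588 and 42461 normalized counts, with 769 as the lowest single marker, and thalamic markers summed to between 2840 and 3813. The 14 choroid plexus markers, which belong to tissue beside the hippocampus, separated the mice: their sum was 88641, 5416, 4903 and 10408 normalized counts in Anesthesia replicates 1 to 4, and 4707, 46980, 105750 and 103478 in Control replicates 1 to 4. All 14 were higher in each of Anesthesia replicate 1 and Control replicates 2, 3 and 4 than in any of the others, and Kcne2 was at 0 in Control replicate 1. The groups overlapped in this sum, and all 14 had a negative log2 fold change, with a median of -1.72. Because 3 of the 4 mice with high choroid plexus markers were Control mice, values are also given within the mice with high and with low markers. The 7 nuclear-retained RNAs summed to between 354845 and 404985 in Anesthesia mice and to between 328599 and 352357 in Control mice, with no overlap. The most abundant RNAs weigh most in this sum. Of the 7, 6 had a positive log2 fold change, with a range of -0.15 to 0.47. Taken singly, only 1 had groups that did not overlap, with the Anesthesia group higher, beside 2.81% of all genes tested. The sums of the marker lists for neurons, interneurons, astrocytes, oligodendrocytes, microglia, endothelium, mural cells, blood and thalamus overlapped between the groups. For neurons the overlap was narrow, from 36941 (lowest Anesthesia mouse) to 37063 (highest Control mouse). Taken singly, 2 of 7 neuron and 1 of 6 microglia markers had no overlap with the Anesthesia group higher (background 2.81%). With it lower, 2 of 6 astrocyte markers did (background 2.23%). No marker in the other lists of this set did. The study reported the axon initial segment as an enriched term among the genes it called in these same mice. The axon initial segment list used here, 6 genes, was chosen with such results known, so its values are a description. It summed to between 60669 and 66736 in Anesthesia mice and to between 51189.8 and 53715 in Control mice, with no overlap. All 6 had a positive log2 fold change, with a range of 0.0096 to 0.65. Taken singly, 5 had groups that did not overlap with the Anesthesia group higher, beside 2.81% of all genes tested. Given how the list was chosen, nothing is read from that count.

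The coding sequence around the residues on which this cycle turns is shown to place the 8 genes in it. The lines below give, for the substrates, the first 60 coding bases from GENCODE M21 transcripts on GRCm38, 5′ to 3′, with the codon of the regulatory serine (codon 3, counting the initiator methionine as 1) in capitals.
Cfl1: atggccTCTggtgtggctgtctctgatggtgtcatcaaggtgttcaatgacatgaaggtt
Cfl2: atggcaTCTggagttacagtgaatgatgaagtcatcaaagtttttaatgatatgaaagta
Dstn: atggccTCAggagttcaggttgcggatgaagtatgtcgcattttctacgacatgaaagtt
The serine codon was the same triplet in Cfl1 and Cfl2, and another serine codon stood there in Dstn. In the 60 bases shown, Cfl1 and Cfl2 differed at 16 positions, Cfl1 and Dstn at 23, and Cfl2 and Dstn at 22. Over the whole proteins, Cfl1 and Cfl2 (166 residues each) were 81.3% identical, and Dstn (165 residues) was 70.9% identical to Cfl1 and 69.1% to Cfl2.

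The phosphatases are shown over 63 bases with the codon of the active-site cysteine in capitals, the residue that takes up the phosphate during catalysis. It was codon 393 of Ssh1, 392 of Ssh2 and 410 of Ssh3.
Ssh1: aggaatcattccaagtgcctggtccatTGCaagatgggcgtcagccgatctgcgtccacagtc
Ssh2: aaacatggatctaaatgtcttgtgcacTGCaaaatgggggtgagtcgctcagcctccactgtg
Ssh3: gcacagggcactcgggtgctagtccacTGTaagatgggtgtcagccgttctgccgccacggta
The kinases are shown over 63 bases with the codon of the activation-loop threonine in capitals, which PAK and ROCK kinases phosphorylate to switch LIM kinases on. It was codon 508 of Limk1 and 505 of Limk2.
Limk1: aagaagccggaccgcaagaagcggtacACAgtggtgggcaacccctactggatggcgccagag
Limk2: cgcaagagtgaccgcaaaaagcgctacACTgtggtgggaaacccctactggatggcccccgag
The stretches of both kinases differed at 12 of 63 positions, and those of the phosphatases at 21 to 24. Over the whole proteins, Ssh1 (1042 residues) and Ssh2 (1423 residues) were identical at 49.9% of their aligned residues, Ssh1 and Ssh3 (649 residues) at 48.2%, and Limk1 (647 residues) and Limk2 (638 residues) at 57.6%. At the level of coding bases every pair within a family was between 67.4% and 71.5% identical.

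Of the 8 genes, Ssh1 was the only one whose normalized counts did not overlap between the groups, and it was higher in the Anesthesia group. Ssh1 encodes the Slingshot phosphatase best studied in cofilin control (ENSMUSG00000042121, chromosome 5, 113937094 to 113993894, minus strand, GRCm38). It had 281, 255.5, 288 and 268 normalized counts in Anesthesia replicates 1 to 4, and 198, 215, 198 and 214 in Control replicates 1 to 4. All 4 Anesthesia values were above all 4 Control values. The group means were 273 ± 14.2 and 206 ± 9.39 (SD, n = 4 each), 32.3% apart, and the log2 fold change was 0.40 with a standard error of 0.087 and a 95% interval of 0.21 to 0.60. Across all genes tested, 2.81% had groups that did not overlap with the Anesthesia group higher, and 2.23% did with it lower. Since this contrast chose Ssh1, nothing is read from its place among them.

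Ssh1 was higher in the Anesthesia mice within both sets of mice defined by choroid plexus markers. Groups that do not overlap must give this in any split, so only the sizes are described. Among the mice with high markers, the single Anesthesia mouse had 281 normalized counts against 198 to 215 in 3 Control mice, and among those with low markers, 3 Anesthesia mice had 255.5 to 288 against 198 in the single Control mouse. With each mouse left out in turn the log2 fold change stayed between 0.38 and 0.43. After a correction of every library for GC and length it was 0.28 (standard error 0.087), and the groups still did not overlap. Ssh1 has a longest coding transcript of 8436 bases with 52.7% GC, against medians of 2916 bases and 48.9% over all genes tested. The sums of the nuclear-retained RNAs and of the axon initial segment list were also higher in each Anesthesia mouse, and their part in the Ssh1 difference was not tested. At the mean of 239.5 normalized counts, counting alone would give a coefficient of variation of about 6.46%, and the mice spread by 5.21% (Anesthesia) and 4.55% (Control).

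Ssh3, the shortest of the phosphatases (chromosome 19, 4261668 to 4269180, minus strand), had higher values in most but not all Anesthesia mice. It had 725, 664, 909.8 and 869 normalized counts in Anesthesia replicates 1 to 4, and 676, 596, 601 and 646 in Control replicates 1 to 4. Anesthesia replicate 2 lay below Control replicate 1, so that the groups overlapped by 1 mouse on each side. The means were 792 ± 116 and 629.6 ± 38.1 (SD, n = 4 each), and the log2 fold change was 0.32 (standard error 0.10, 95% interval 0.090 to 0.55). It was 0.25 without Anesthesia replicate 3, the mouse with the highest value, and 0.40 without Anesthesia replicate 2. Within the mice with high choroid plexus markers the log2 difference was 0.24, and within those with low markers it was 0.26.

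Ssh2, which at 9178 bases has the longest transcript of the 8 (chromosome 11, 77216287 to 77460220, plus strand), had values that crossed between the groups. It had 1649, 1695, 1557 and 1536 normalized counts in Anesthesia mice and 1608, 1525, 1612 and 1736 in Control mice. The log2 fold change was -0.0094 with a 95% interval of -0.15 to 0.13. Correction for GC content and transcript length moved it to -0.092. A transcribed processed pseudogene inside the Ssh2 locus, Gm12346, had 89.1 ± 2.99 and 82.7 ± 8.59 normalized counts (SD, n = 4 each).

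**Figure D1:**
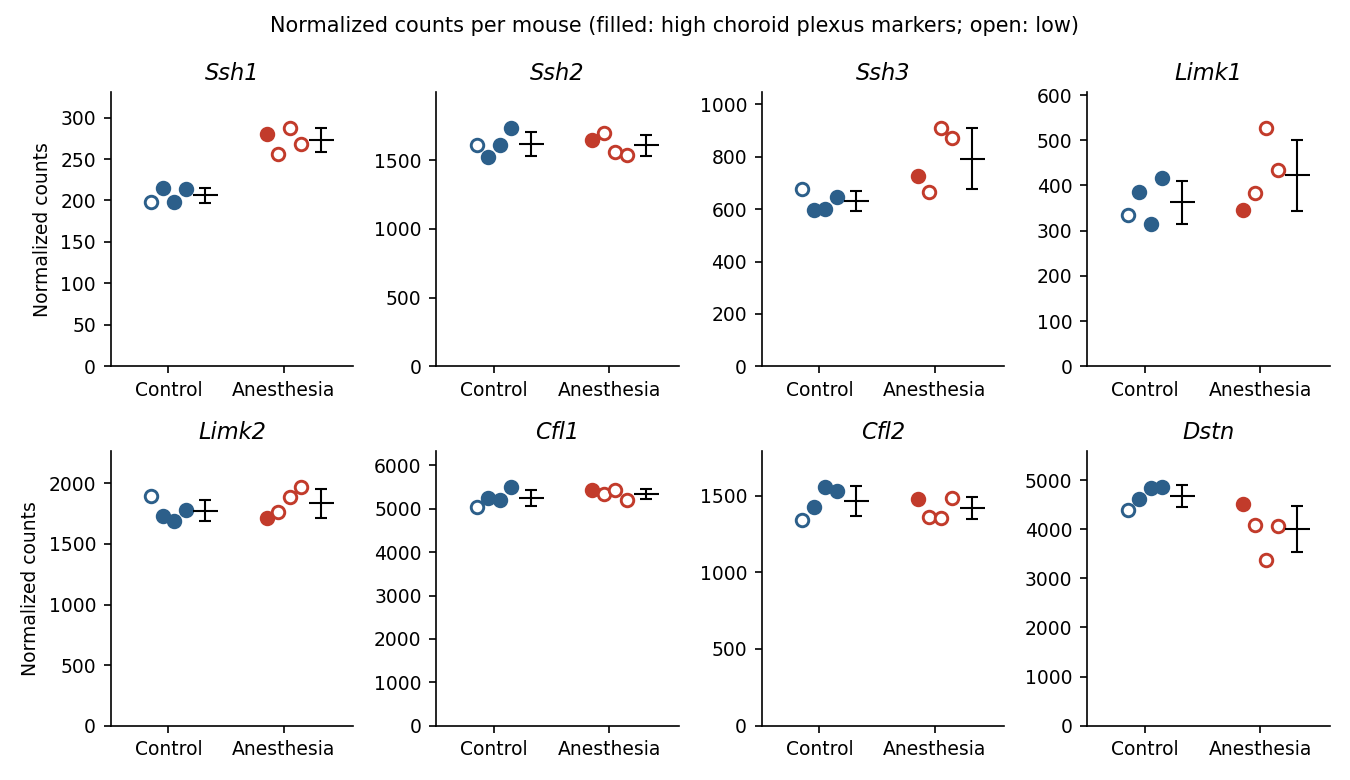
Normalized counts of the 8 genes in each mouse, with blue points for the Control group and red points for the Anesthesia group. Filled points are mice with high choroid plexus markers, open points mice with low ones, and the bar beside each group is its mean with SD (n = 4). The Ssh1 groups stand apart at 255.5 to 288 against 198 to 215, whereas each of the other 7 genes has groups that overlap.

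Between the kinases, neither had groups that stood apart. Limk1, the LIM kinase known for its part in dendritic spines (chromosome 5, 134656039 to 134688598, minus strand), had 346, 383, 528 and 435 normalized counts in Anesthesia replicates 1 to 4, and 334, 385, 314 and 416 in Control replicates 1 to 4. Anesthesia replicate 3 was the highest of the 8 mice, and Anesthesia replicates 1 and 2 lay within the Control range. The means were 423 ± 78.8 and 362 ± 46.7 (SD, n = 4 each), and the log2 fold change was 0.21 (standard error 0.14) with a 95% interval of -0.095 to 0.52. Without Anesthesia replicate 3 it was 0.10, and without Anesthesia replicate 1 it was 0.30. Among the mice with high choroid plexus markers the single Anesthesia mouse was lower by 0.093 on the log2 scale than the mean of the Control mice, while among those with low markers the log2 difference was 0.41.

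Limk2, the more widely expressed LIM kinase (chromosome 11, 3344256 to 3409189, minus strand), had 1713, 1766, 1889 and 1970.0 normalized counts in the Anesthesia group. The Control mice had 1900.2, 1735, 1692 and 1776, which spanned most of the same range. The log2 fold change was 0.046 (standard error 0.065) with a 95% interval of -0.098 to 0.19.

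Among the substrates, Cfl1 and Cfl2 had groups that overlapped over most of their range. Cfl1, the main cofilin of brain (chromosome 19, 5490455 to 5495201, plus strand), had 5423, 5329, 5420.1 and 5192 normalized counts in Anesthesia replicates 1 to 4, and 5029, 5253, 5208 and 5499.7 in Control replicates 1 to 4. The highest and the lowest of all mice were both Control mice. The means were 5341 ± 109 and 5247 ± 194 (SD, n = 4 each), and the log2 fold change was 0.026 (standard error 0.048) with a 95% interval of -0.081 to 0.13. The coefficients of variation, 2.03% (Anesthesia) and 3.70% (Control), were the lowest of the 8 genes. Cfl1 shares sequence with other loci: 27.9% of the 31-base words of its longest transcript also occur in other annotated transcripts, 17.7% in Snx32, which overlaps it on the opposite strand, and 12.3% in the processed copy Gm6180. Snx32 had 971 ± 40.2 and 998 ± 61.6 normalized counts (SD, n = 4 each), and no value of Gm6180 was analysed here. How many reads were ambiguous was not measured, and for Snx32 it depends on whether the libraries kept the strand, on which the named kits differ.

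Cfl2 (chromosome 12, 54858809 to 54862877, minus strand) had 1478, 1359, 1351 and 1483 normalized counts in Anesthesia mice and 1343, 1423, 1556 and 1532 in Control mice. The lowest and the highest mouse were again both Control mice. Its log2 fold change was -0.044 (standard error 0.068) with a 95% interval of -0.19 to 0.11, and with the choroid plexus markers as a covariate it was 0.017.

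Dstn, whose product depolymerizes actin more than it severs it (chromosome 2, 143915320 to 143943324, plus strand), was the member with the most negative log2 fold change. It had 4511, 4079.9, 3377 and 4056 normalized counts in Anesthesia replicates 1 to 4, and 4396, 4607, 4848 and 4859 in Control replicates 1 to 4. Anesthesia replicate 3 was the lowest of all mice, and only Anesthesia replicate 1 rose above a Control mouse, replicate 1. The means were 4006 ± 469 and 4677 ± 221 (SD, n = 4 each), and the log2 fold change was -0.23 (standard error 0.083) with a 95% interval of -0.41 to -0.047. Dstn moved with the choroid plexus markers: its highest values in each group, 4511 (Anesthesia) and 4607 to 4859 (Control), belonged to the mice with high markers. With those markers as a covariate the log2 fold change was -0.14 (standard error 0.069). Within the mice with high markers the Anesthesia mouse lay below all 3 Control mice, by 0.081 on the log2 scale, and within those with low markers the 3 Anesthesia mice lay below the single Control mouse, by 0.20. The part of choroid plexus tissue in the pooled difference beyond these values was not tested. Without Anesthesia replicate 3 the log2 fold change was -0.15. Of the 31-base words in Dstn, 4.09% occur in other transcripts.

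**Figure D2:**
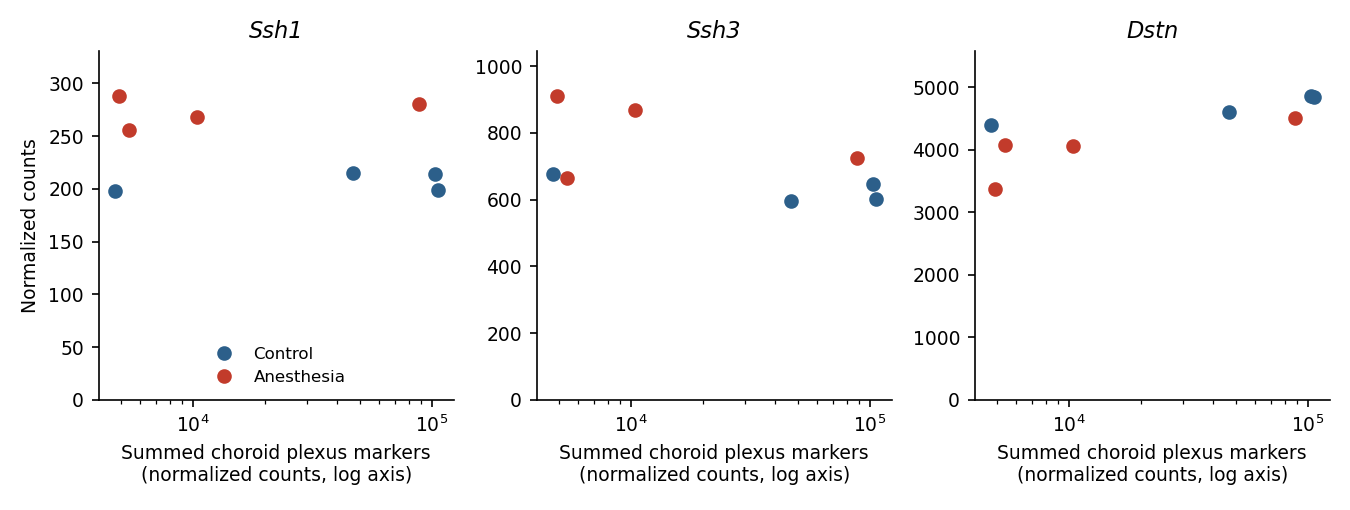
Normalized counts of Ssh1, Ssh3 and Dstn against the summed normalized counts of 14 choroid plexus markers (log axis), 1 point per mouse, blue for Control and red for Anesthesia. Ssh1 is higher in the Anesthesia mice at both ends of the axis, as groups that do not overlap must be. The Dstn values of each group are highest at the right, where the Anesthesia mouse has 4511 and the Control mice have 4607 to 4859.

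**Figure D3:**
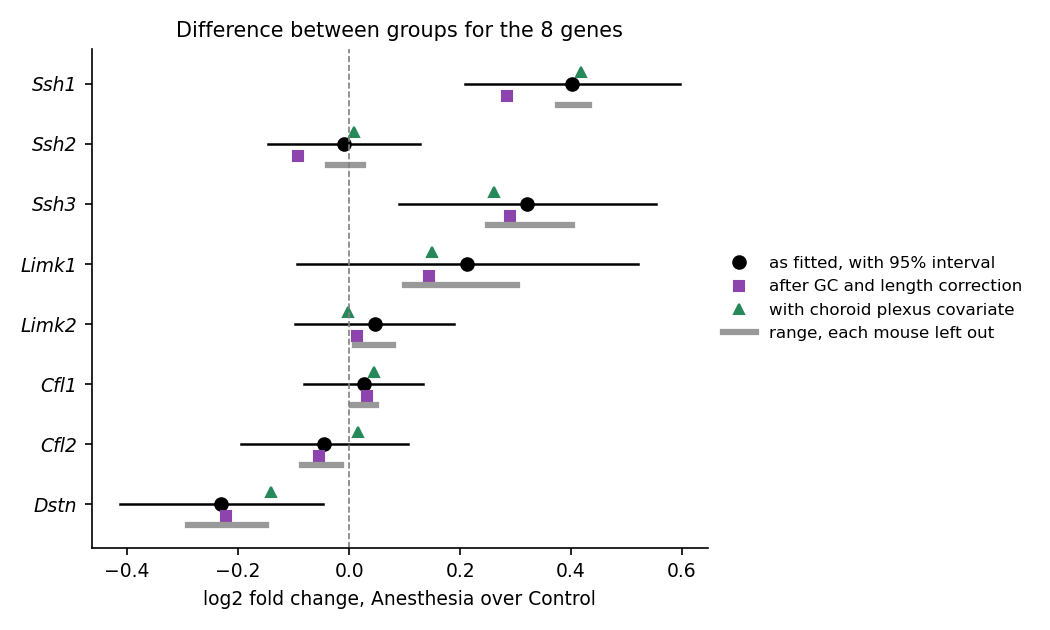
Log2 fold change of each gene between the Anesthesia and Control groups, with black points and lines for the fitted value and its 95% interval. Squares give the value after correction for GC content and transcript length, triangles the value with the choroid plexus markers as a covariate, and grey bars the range with each mouse left out in turn. Ssh1 moves from 0.40 to 0.28 under the first and Dstn from -0.23 to -0.14 under the second.

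In all, 5 of the 8 genes had a positive log2 fold change and 3 a negative one, beside 49.2% of all genes tested with a positive value, and the median over all genes was -0.0036. The all-gene limma comparison called 0 of 18865 genes (0%) at an adjusted p under 0.05, and voom also called 0. The study did call genes at that threshold, Ssh1 among them, but with DESeq2 on counts. That is another test than limma on log2 values, and why the calls differ was not tested. Without adjustment, 1513 genes (8.02%) had a p under 0.05, 897 higher and 616 lower, and voom gave 1468. These p-values set the difference between the groups against the spread between mice.

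Levels can be set beside each other between genes only per transcript length, and the order below is per kilobase of the longest coding transcript. Dstn and Cfl1 were at the top of it, and Ssh1 was at the bottom. Dstn had 2272 ± 258 normalized counts per kilobase and Cfl1 had 2249 ± 65.4 (SD, n = 8 mice each). The mean log2 difference between them was 0.0063, Dstn was higher in 5 of 8 mice, and an exact two-sided sign-flip permutation test gave an adjusted p of 0.945. The next pair, Cfl2 at 490.1 ± 28.5 and Limk2 at 486 ± 27.3 normalized counts per kilobase (SD, n = 8), did not differ beyond their spread with this length (exact permutation test, adjusted p = 0.945). With the union of exons Cfl2 was 1.49-fold above Limk2 and with the coding length 3.07-fold, in 8 of 8 mice each (exact permutation tests, adjusted p = 0.00911 and 0.0109). Dstn was 1.21-fold above Cfl1 with the union of exons and 1.12-fold with the coding length (exact permutation tests, adjusted p = 0.0156 and 0.0547). With the median coding transcript the order turned: Dstn was at 0.49-fold of Cfl1 and higher in 0 of 8 mice (exact permutation test, adjusted p = 0.0109). These tests take the length as given and weigh only the spread between mice.

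The other 5 of the 7 neighbouring steps in the order were in the same direction in 8 of 8 mice, each with an exact permutation p of 0.00781, the smallest that 8 mice allow, and an adjusted p of 0.0109. Cfl1 was 4.59-fold above Cfl2 and Limk2 was 1.89-fold above Ssh3. Ssh3, at 259.8 ± 43.2 normalized counts per kilobase, was 1.46-fold above Ssh2, at 176 ± 8.22. Limk1 had 118 ± 20.4, and Ssh1 had 28.4 ± 4.42 and was the lowest of the 8 in every mouse, 4.14-fold below Limk1. The step between Ssh3 and Ssh2 depends on the length used. With the coding length alone it turned to -0.069 on the log2 scale (exact permutation test, adjusted p = 0.492). With the median coding transcript it turned to -0.29 (exact permutation test, adjusted p = 0.0365). Dstn and Cfl1 also changed places with the median coding transcript, at -1.03. The size of the other steps moved with the length as well. Cfl1 was 9.42-fold above Cfl2 with the median coding transcript and 2.69-fold with the coding length. Ssh2 was 2.89-fold above Limk1 with the median coding transcript, against 1.51-fold with the longest. Ssh1 was the lowest of the 8 with every length tried, but 2.03-fold below Limk1 with the union of exons, 2.30-fold with the median coding transcript and 2.64-fold with the coding length.

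**Figure D4:**
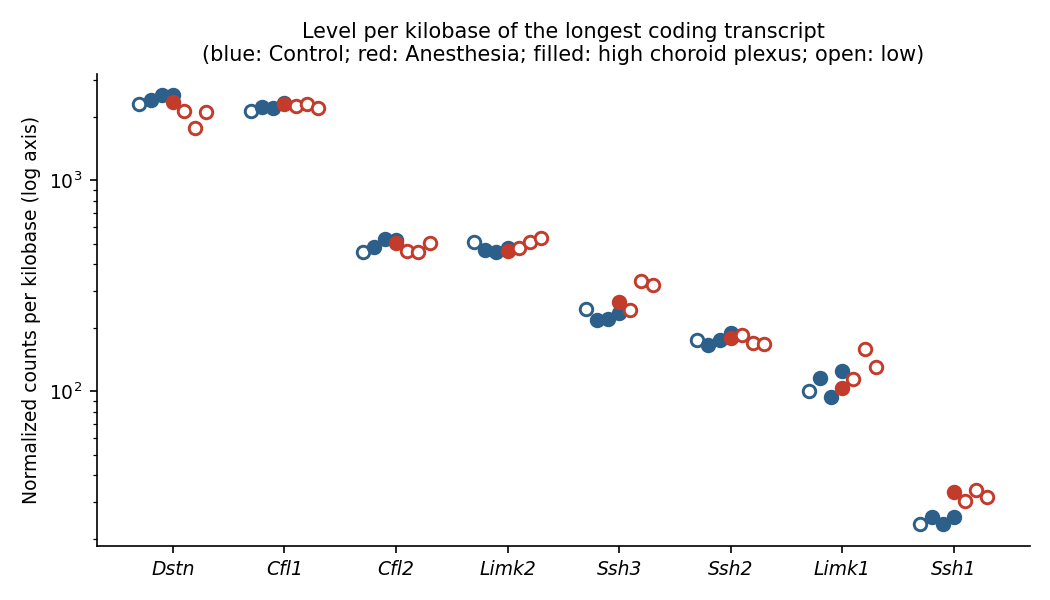
Normalized counts per kilobase of the longest coding transcript (log axis) for the 8 genes in order of their mean, 1 point per mouse, blue for Control and red for Anesthesia, filled for high and open for low choroid plexus markers. With this length Dstn and Cfl1 share the top near 2272 and 2249, Cfl2 and Limk2 lie near 490.1 and 486, and Ssh1 is lowest at 28.4.

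Seen as a family, Ssh1 made up a small part of the Slingshot RNA per kilobase, with 6.52% ± 0.353 (Anesthesia) and 5.68% ± 0.395 (Control; SD, n = 4 each). Ssh3 made up 58.0% ± 4.44 and 53.4% ± 1.43, and Ssh2 the rest. Limk2 made up 79.7% ± 2.35 of the LIM kinase level per kilobase in Anesthesia mice and 81.5% ± 2.07 in Control mice. All of these shares overlapped between the groups, that of Ssh1 with 6.14% to 6.96% (Anesthesia) and 5.26% to 6.21% (Control), although its counts did not. The shares depend on the transcript lengths and were not tested between the groups.

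The share of Dstn in the summed level of the cofilin family per kilobase was 45.7%, 43.9%, 39.0% and 43.9% in Anesthesia replicates 1 to 4, and 47.0%, 47.0%, 48.1% and 47.1% in Control replicates 1 to 4. Each Anesthesia mouse was below each Control mouse, which was not so for the Dstn counts themselves. The share of Cfl1 ran the other way, with 44.6%, 46.6%, 50.8% and 45.6% in the Anesthesia group against 43.7%, 43.5%, 41.9% and 43.3% in the Control group, also with no overlap. The shares sum to a fixed whole, so a lower Dstn share by itself raises that of Cfl1. The Cfl1 counts themselves overlapped, with a log2 fold change of 0.026. Cfl2 held 9.96% ± 0.416 and 9.61% ± 0.304 (SD, n = 4 each). These shares come from the contrast that chose the genes and are a description only, and their means over all mice, 45.0% for Cfl1 and 45.2% for Dstn, shift with the transcript length used.

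**Figure D5:**
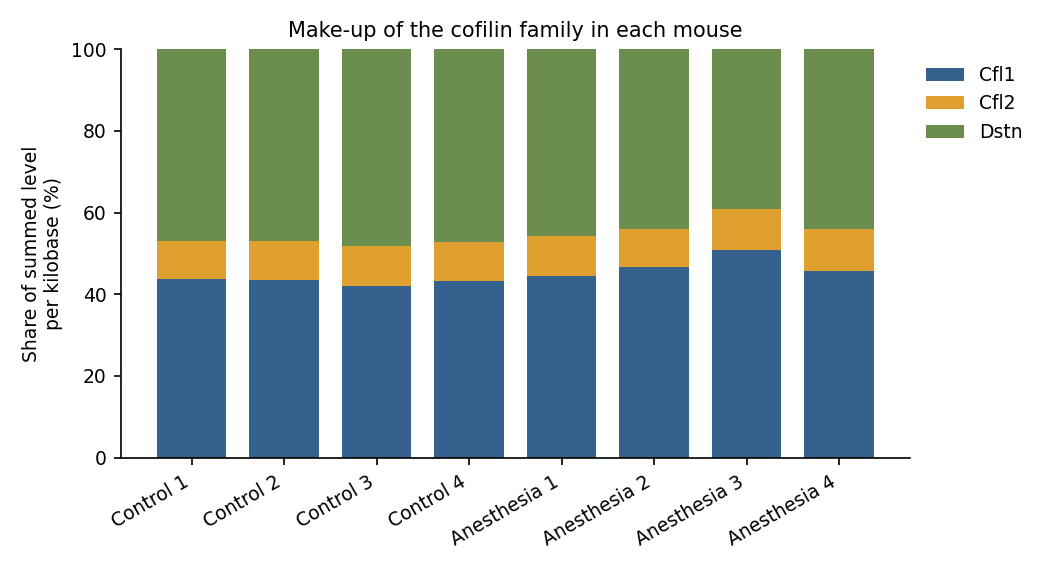
Share of Cfl1, Cfl2 and Dstn in their summed normalized counts per kilobase, in percent, as 1 stacked bar per mouse. The Dstn part is 47.0% to 48.1% in the Control mice and 39.0% to 45.7% in the Anesthesia mice.

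The 8 genes did not vary together in a way that passed a test. With the group means removed, 28 pairs were correlated over the 8 mice with exact permutations within the groups. The lowest p belonged to Cfl2 and Dstn, with Pearson's r = 0.68 (exact permutation p = 0.0139, adjusted p = 0.389) and Spearman's rho = 0.71 (exact permutation p = 0.0764, adjusted p = 0.597), and r was 0.46 without the 2 mice farthest from the median of Cfl2. Ssh3 and Limk2 had the highest r, at 0.82 (exact permutation p = 0.0573, adjusted p = 0.6095) with a rho of 0.81 (exact permutation p = 0.101, adjusted p = 0.597), and r was 0.97 without the 2 farthest mice. Of the 28 pairs, 0 passed after adjustment and 1 had an unadjusted p under 0.05.

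By likeness of pattern over the 8 mice, Ddx28, Cbx6, Atp13a2, Ppfia3 and Tmub2 followed Ssh1 most closely among 12241 genes with a mean of at least 100. Their Pearson's r was between 0.94 and 0.96, and between 0.56 and 0.75 once the group means were removed. The genes closest to Cfl1 were Ppp1r16a, Vac14, Il10ra, Itpr1 and Pigm, with r between 0.93 and 0.95, and between 0.93 and 0.96 with the group means removed. Removing the group means lowered r for all 5 genes closest to Ssh1. Ssh1 was chosen by its group difference and these genes by their r with it, so nothing is read from that drop, and its cause was not tested. All points share the same 8 libraries, and the genes were picked for having the highest r among 12241, so these values are descriptions.

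Further genes of the pathway were described by lists. Among 4 partners that bind or restrain LIM kinases, all 4 had positive log2 fold changes, with a median of 0.10, and 0 passed the threshold. Nisch, whose product nischarin inhibits LIM kinase and PAK signalling, had 5488 ± 128 and 4769.7 ± 195 normalized counts (SD, n = 4 each) with no overlap and a log2 fold change of 0.20 (limma adjusted p = 0.565). After the GC and length correction the Nisch value was 0.084.

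The regulators of Slingshot and cofilin phosphatases are calcineurin, which activates Slingshot, 14-3-3 proteins and protein kinases D, which hold it inactive, and chronophin (Pdxp), a further cofilin phosphatase. Of these 13 genes, 4 had a positive and 9 a negative log2 fold change, the median was -0.033, and 0 had an adjusted p under 0.05. Pdxp had 1989 ± 27.5 and 1935 ± 167 normalized counts (SD, n = 4 each) and a log2 fold change of 0.044 (limma adjusted p = 0.863). Ppp3r1, the regulatory subunit of calcineurin, had 11429 ± 1041 and 12490.2 ± 310.1 (SD, n = 4 each), with a log2 fold change of -0.13 (limma adjusted p = 0.636).

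The filament turnover list holds factors that act with cofilin or protect filaments from it, such as coronins, twinfilins, tropomodulins and tropomyosins. Of its 20 genes, 9 had a positive and 11 a negative log2 fold change, the median was -0.0044 (0.0061 with upper quartile scaling), and 0 passed the threshold. Coro7, a coronin of the Golgi, had 665 ± 53.6 and 523 ± 88.0 normalized counts (SD, n = 4 each) and a log2 fold change of 0.36 (limma adjusted p = 0.620), and Tpm4, a tropomyosin, had 616 ± 36.7 and 688 ± 62.6 with -0.16 (limma adjusted p = 0.660).

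The list of actins and nucleation factors had the most negative median, -0.080, with 8 of 31 genes positive, 23 negative and 0 past the threshold. Spire1, an actin nucleator, had 3239 ± 205 and 2849 ± 108 normalized counts (SD, n = 4 each) and a log2 fold change of 0.18 (limma adjusted p = 0.620). Diaph1, a formin that elongates filaments, had 622 ± 43.4 and 733 ± 53.2, with -0.24 (limma adjusted p = 0.620). Wasf1 and Wasf3, subunits of the WAVE complex named after their values were seen, had log2 fold changes of -0.20 and 0.18, in opposite directions. The number of genes in this list with an unadjusted p under 0.05 was 4 with all mice (12.9%, against 8.02% of all genes tested). With each mouse left out it was 2 to 13. The highest count, 13, came without Anesthesia replicate 2 (41.9%, against 9.29% of all genes in that fit). Leaving out any other mouse gave 2 to 5. It was 3 after GC and length correction and 2 with the choroid plexus covariate.

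Over the 68 genes of these 4 lists, 25 had a positive and 43 a negative log2 fold change, with a median of -0.033. Of these, 6 had an unadjusted p under 0.05 (8.82%), 4 higher and 2 lower, beside 8.02% of all genes tested. With each mouse left out the count was 4 to 19. The highest, 19 (27.9%), came without Anesthesia replicate 2, beside 9.29% of all genes in that fit. Groups that did not overlap were found in 2 with the Anesthesia group higher (2.94%, background 2.81%) and in 3 with it lower (4.41%, background 2.23%). The latter were Diaph1 and, named after their values were seen, Ywhae (a 14-3-3 protein) at -0.089 and Actg1 (gamma actin) at -0.080 on the log2 scale.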

How the data were processed

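Hippocampal RNA-seq values of 8 mice (4 per group) were used, and each column of the deposited table was matched to its mouse by group letter and number, with 0 columns left over. Per the labels and the study's methods, the authors quantified reads with Salmon 1.1.0 on GRCm38, summarised transcripts per gene and normalized the counts with DESeq2 1.30.1 (R 3.5.3 in the submitters' processing notes). The deposited values are thus a normalized signal. Only 45.9% to 68.3% of low values came within 0.1 of whole reads, and count models were not used. The annotation release and the filter on low genes are not given in the sources used here.

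Group differences were estimated with limma 3.58.1 (R 4.3.3, trend option) from log2(value + 1) of 18865 genes with a mean of at least 10 (1937 were left out), with Benjamini-Hochberg adjustment. Fold changes on this scale understate changes of low genes. The script was tested on simulated data. Symbols, positions and coding sequences came from GENCODE M21 (20784 identifiers matched, 18 did not), with Pak5 listed there as Pak7. Level per kilobase divides by the longest coding transcript, and neighbours in that order were compared by exact sign-flip permutation over mice, adjusted over 7 steps. Mice with over 20000 summed choroid plexus counts were called high, a split made after the data were seen. Genes named were the 8 members and, in each actin list reported, the gene with the smallest p in each direction, besides the 5 genes most like Ssh1 and Cfl1. The members and lists were chosen with earlier results of these data known. One further list of upstream signalling genes is not reported here. Alternatives were other scalings, pseudocounts and filters, voom, a replicate block, GC and length correction, a choroid plexus covariate, other transcript lengths, a normal reference distribution, a threshold of 0.10 and leaving out each mouse.

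Same-numbered mice did not deviate together (correlations of -0.242, -0.109, -0.182 and 0.0194), so replicate numbers were not used to pair them.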

Additional observations from a re-analysis of the deposited data

Results flagged for a closer look

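In 4 of 64 groups of 4 mice examined, 1 mouse stood far from the other 3, by a gap that took up more of the group's range than Dixon's critical value allows. Chance flags about 1 in 20 groups. The share of Dstn in the cofilin family within the Control group was flagged at 0.926, since Control replicate 3 had 48.1% and the others 47.0% to 47.1%. The summed choroid plexus markers in the Anesthesia group were flagged at 0.934 for Anesthesia replicate 1, with 88641 normalized counts against at most 10408 in the other Anesthesia mice. This is the mouse with the highest Dstn value of its group. The summed oligodendrocyte markers in the Anesthesia group were flagged at 0.862 for Anesthesia replicate 4, with 140076 against 82563 to 90499. The summed thalamus markers in the Control group were flagged at 0.885 for Control replicate 3, with 3813 against 2883 to 2990. None of the 16 groups of normalized counts of the 8 genes was flagged.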

How the results depend on the processing

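The count of genes with an adjusted p under 0.05 was 0 under every alternative run except 176 with a normal reference distribution and, over each mouse left out, 0 to 2. Both of the 2, mt-Nd4l and Gm10222, appeared without Control replicate 1. The count at an unadjusted p under 0.05 was 859 with the choroid plexus covariate, 805 with choroid plexus high or low as a term (added after the data were seen) and 860 with GC and length correction plus the replicate block. It was 1061 to 2022 with each mouse left out. The replicate block alone gave 0 genes at an adjusted p under 0.05 and 1084 at an unadjusted one, and as a balanced block it left each member's log2 fold change as it was. After GC and length correction, with or without the replicate block, Ssh1 was 0.28 and Ssh2 -0.092. Upper quartile scaling, library size scaling and voom kept the Ssh1 value between 0.39 and 0.41. In the mice with low choroid plexus markers alone (3 against 1) Cfl1 was 0.079 and Cfl2 0.057, and in those with high markers alone (1 against 3) Limk1 was -0.093 and Dstn -0.081. These fits assume that the lone mouse varies like the others. The number of members whose groups did not overlap was 1 to 3 with each mouse left out: Dstn joined Ssh1 without Anesthesia replicate 1, Ssh3 without Anesthesia replicate 2, and both without Control replicate 1. Dstn and Ssh3 each overlapped by 1 mouse on either side, so leaving out that mouse must part the groups. The share over all genes in these fits is not given here, so nothing is read from this count. In level per kilobase, Dstn over Cfl1 was -1.03 with the median coding transcript and between -0.021 and 0.062 with each mouse left out, negative without any 1 of the Control mice (-0.0080, -0.0087, -0.021 and -0.010). Cfl2 over Limk2 was 0.58 with the union of exons, 1.62 with the coding length, -0.032 with the median coding transcript and between -0.019 and 0.036 with each mouse left out. Ssh3 over Ssh2 was -0.29 with the median coding transcript and -0.069 with the coding length. Cfl1 over Cfl2 was 3.24 and 1.43 with the same lengths, and Limk1 over Ssh1 was 1.02 to 1.398 over the other 3 lengths. The share of Cfl1 was 40.8%, 62.6% and 40.1% with the union of exons, the median coding transcript and the coding length, that of Dstn 49.5% and 30.7% with the first pair, and that of Cfl2 6.65% and 14.9% with the last pair. Lengths set these by construction, and the cause of the other shifts was not tested. Depth limits Ssh1 most, the lowest of the 8.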
